A study of Rattus norvegicus with 15 samples.

Results

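The synthesis of cholesterol and of fatty acids was followed through 32 genes of the 32623 in the table: 18 that encode enzymes of sterol synthesis from acetoacetyl-CoA to cholesterol, 5 that encode the SREBP transcription factors and the proteins that control them, and 9 that encode enzymes of fatty acid synthesis, elongation and desaturation. They were chosen by name, and each name matched 1 row. RNA was sequenced from the embryo brain cortex of Wistar rats in 6 groups. The HFD groups came from mothers fed a diet with 60% of its calories from fat until they were obese and then mated with healthy males, and were taken on 3 embryonic days, E14.5, E16.5 or E18.5 (2 libraries each). The control groups came from mothers on normal chow and were taken on the same days (3 libraries each). Per the study's methods, each library pooled the frontal lobe cortices of 1 whole litter, and each stage came from different mothers, so a library stands for a litter and not for a single embryo. All groups shared strain, tissue label and library kit, and no gene was altered. The brain contains many cell types, and in pooled tissue fewer cells of a type and less RNA per cell cannot be told apart.

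Cells make cholesterol from acetyl units through the mevalonate pathway, and the fetal brain relies largely on its own synthesis because lipoprotein cholesterol hardly crosses the barrier to the brain. The SREBP factors are made as membrane proteins of the endoplasmic reticulum, where Scap escorts them and the Insig proteins hold them back when sterols are plentiful. When sterols run low, SREBP is cut and its free end enters the nucleus, where SREBP-2 (gene Srebf2) mainly raises the sterol genes and SREBP-1 (gene Srebf1) mainly the fatty acid genes. Growing neural tissue needs both products for new membrane.

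Library totals ran between 5598195 and 9529978 counts, and 1 count was worth 0.106 to 0.187 CPM, the count rescaled to a common library size by TMM, which scales libraries by their typical gene. All 32 genes passed the filter on low counts, among 15417 genes kept with all 15 libraries and 15354 with 14. CPM is not corrected for transcript length, so levels are compared between libraries and never between genes. The library labelled E18.5 control replicate 1 stood apart. Its summed level of 8 cortex markers (Emx1, Tbr1, Neurod6 and others) was 309 CPM, against 1214 to 1546 CPM in the other E18.5 libraries, and its summed level of 5 lens markers was 200.2 CPM, against 3.02 to 3.62 CPM. It is given separately below, and the diet results of the 32 genes at E18.5 are also given without it. Lens markers were also present in all 5 libraries of E14.5 (181 to 385 CPM summed, against 2.24 to 5.30 CPM at E16.5). Cortex markers there summed to 253 to 589.9 CPM, against 1040.4 to 1630.1 CPM at E16.5. These libraries thus carried lens RNA and less of the cortex markers. In each of them 1 lens gene was at 0, counted over all listed lens genes, of which 5 passed the filter. Their summed level of 11 head mesenchyme markers was 4874 and 4329 CPM in HFD and 5771, 3184 and 1825 CPM in control libraries.

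Over the 14 libraries other than E18.5 control replicate 1, the highest level was a median of 1.5 times the lowest, and 16 of 32 genes (50%) varied by less than 1.5 times: 9 of 18 of sterol synthesis, 1 of 5 of SREBP control and 6 of 9 of fatty acid synthesis. Of the 11728 tested genes whose mean level was at or above the lowest member mean of 5.13 CPM, 18.4% varied so little, and their median was 1.95 times. The coefficient of variation was a median of 12.2% in the 32 genes and 20.1% in that background, a description for which no test was run. That background shares only its lower limit with the 32 genes and was not matched to their levels. Precision is limited for genes of a few CPM. Fasn, the multifunctional synthase that builds palmitate, varied least (1.2 times), followed by Srebf2 (1.24 times) and Mvd, which makes isopentenyl diphosphate (1.28 times). Only 3 genes varied by more than 2 times: the desaturase gene Scd (3.71 times), Acat2, whose cytosolic thiolase makes acetoacetyl-CoA (2.33 times), and Pmvk, the phosphomevalonate kinase (2.30 times).

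**Figure D1:**
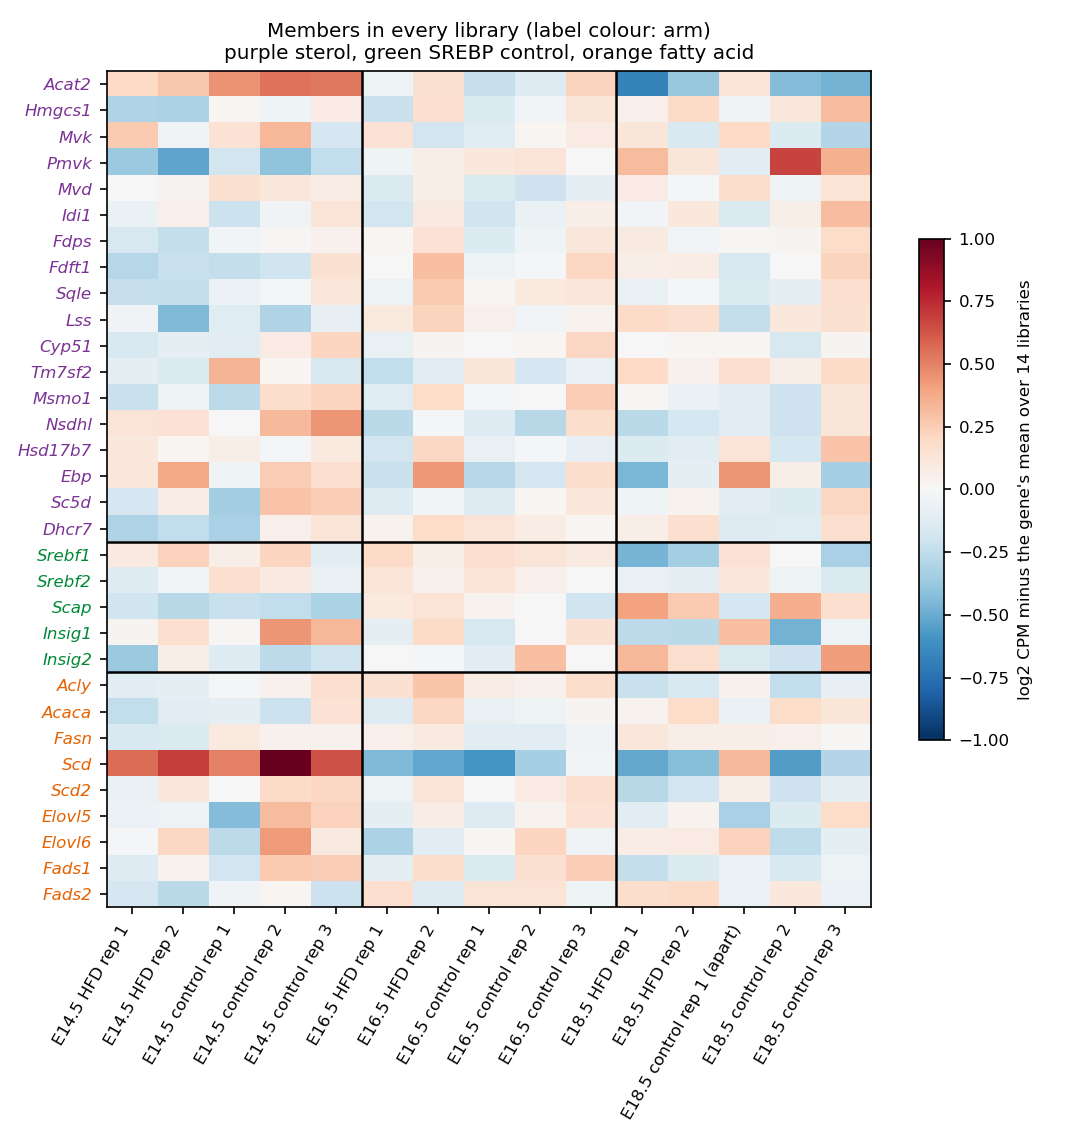
Log2 CPM of each of the 32 genes in each library, minus the mean of that gene over the 14 libraries other than E18.5 control replicate 1 (red higher, blue lower, colours saturating at -1 and 1). Columns are the libraries in order of stage with HFD left of control, rows are the genes by arm, and the Scd row shows the widest range, 13.1 to 48.5 CPM.

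RefSeq promoter windows (build GRCr8, 250 bases before to 50 after 1 annotated start) matched 26 of the 32 genes by symbol. They are described because SREBP is known to act together with NF-Y, which binds CCAAT, and with Sp1, which binds GGGCGG. The NF-Y box CCAAT was found on either strand in 20 of the 26 windows: 12 of 15 of sterol synthesis, 4 of 5 of SREBP control and 4 of 6 of fatty acid synthesis. In all 33469 windows of the table it was found in 37.5%, and in the 21842 of protein-coding genes in 38.0%. It occurred 2 or more times in 10 of the 15 sterol synthesis windows and in 11.2% of all windows. GGGCGG was found in 20 of the 26 windows, against 33.1% of all windows and 41.8% of protein-coding ones. The E-box CACGTG was found in 4 of the 26, against 6.42% of all. The SREBP core CACCCCAC was found in 1 of the 26 (Ebp, sterol isomerase), against 2.70% of all. These are letter matches in a short window of a build newer than the rn6 of the counts, they were not tested, and a window without a match says nothing of the factor.

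The last 200 bases before the start are given for Hmgcs1, Ebp, Scd2 and Scd, chosen after their values were seen: Hmgcs1 as the synthase near the start of the sterol arm, Ebp as the window with the SREBP core, and Scd2 and Scd as a pair of paralogs. Capitals mark CCAAT on either strand (it reads ATTGG on the other strand) and, in Ebp, the SREBP core.
Hmgcs1 (chr2:53382104-53382303, plus strand): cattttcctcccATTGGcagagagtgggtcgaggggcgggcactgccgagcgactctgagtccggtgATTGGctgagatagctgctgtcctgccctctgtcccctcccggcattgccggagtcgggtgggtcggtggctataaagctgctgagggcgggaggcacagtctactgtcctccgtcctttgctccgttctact
Ebp (chrX:16971262-16971461, plus strand): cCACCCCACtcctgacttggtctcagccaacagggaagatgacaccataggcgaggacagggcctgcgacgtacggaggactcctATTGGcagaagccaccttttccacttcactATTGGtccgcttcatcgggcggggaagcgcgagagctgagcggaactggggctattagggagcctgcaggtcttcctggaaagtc
Scd2 (chr1:253118177-253118376, plus strand): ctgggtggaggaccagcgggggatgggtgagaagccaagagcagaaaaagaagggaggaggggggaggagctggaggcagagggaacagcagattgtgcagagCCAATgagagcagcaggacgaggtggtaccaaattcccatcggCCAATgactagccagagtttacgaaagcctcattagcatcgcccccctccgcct
Scd (chr1:253231732-253231931, minus strand): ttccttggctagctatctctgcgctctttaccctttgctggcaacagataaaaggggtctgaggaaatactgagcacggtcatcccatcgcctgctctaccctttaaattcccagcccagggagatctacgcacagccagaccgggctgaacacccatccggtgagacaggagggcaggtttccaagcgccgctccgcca
Hmgcs1, Ebp and Scd2 each held 2 CCAAT boxes in these 200 bases, and Scd held none. Other windows without a box were those of Acat2 and Scap, which passed the threshold between stages below, and of Cyp51, Dhcr7 and Fads2, which did not. That of Nsdhl, which also passed, held 5. Whether the boxes go with change between stages was not tested.

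The first comparison asked how the genes changed between stages. Changes are the mean of the HFD and control changes, later minus earlier stage, from edgeR's quasi-likelihood test on 14 libraries with Benjamini-Hochberg adjustment over all genes tested and a threshold of 0.05, and each error is the SE. Between E14.5 and E18.5, 4 of the 32 genes rose and 7 fell. Among all tested genes 27% rose and 31.6% fell, and both shares of the lipid synthesis genes were below these, a description with no test. Their median absolute log2 change was 0.21, against 0.52 for all tested genes. Between E14.5 and E16.5, 3 rose and 3 fell, against 21.6% and 21.3% of all genes, and between E16.5 and E18.5, 1 rose and 4 fell, against 10.6% and 11.8%. With E18.5 control replicate 1 included, 5 rose and 5 fell between E14.5 and E18.5 (26% and 23.7% of all genes), and 3 rose and 1 fell between E14.5 and E16.5 (20.3% and 14% of all genes). None passed between E16.5 and E18.5 with that library (4.5% of all genes in either direction). At an unadjusted p under 0.05, 0 of the 32 were higher and 4 lower there, against 1607 and 1964 of all 15417 genes. By DESeq2 on 14 libraries 11 of the 32 were called from E14.5 to E18.5, against 46.8% of all genes, 4 from E14.5 to E16.5, against 36%, and 5 from E16.5 to E18.5, against 21.1%. The levels of all E18.5 libraries without that library did not overlap those of E14.5 for 3 genes that were higher (Pmvk, Lss and Scap) and 4 that were lower (Acat2, Scd, Scd2 and Insig1), against 25.2% and 22.9% of all genes.

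**Figure D2:**
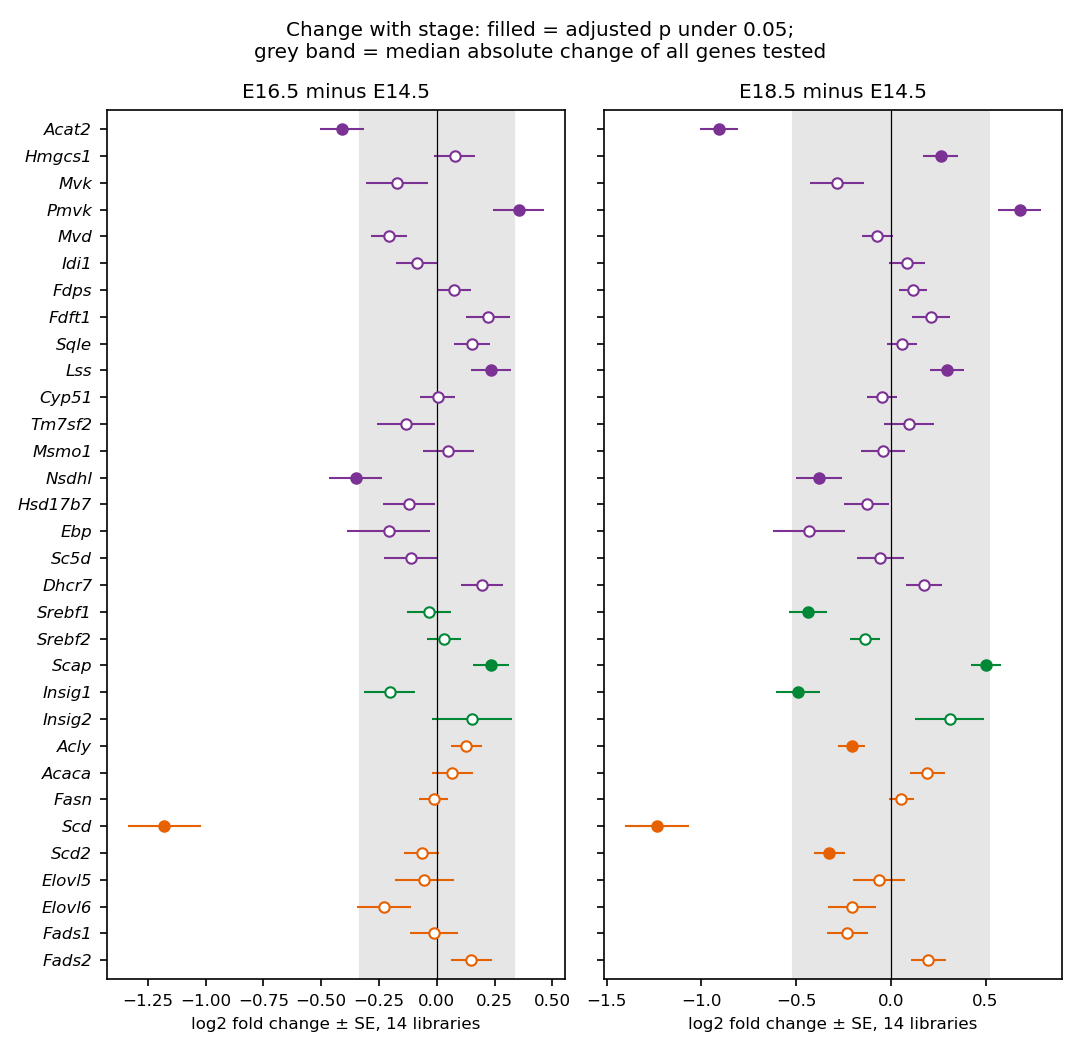
Log2 fold change with its SE (bars) between stages for each of the 32 genes, from 14 libraries. Filled points passed an adjusted p of 0.05, purple marks sterol synthesis, green SREBP control and orange fatty acid synthesis, and the grey band spans the median absolute change of all tested genes, which is 0.33 at left and 0.52 at right. Scd (-1.18 and -1.24) and Acat2 (-0.41 and -0.91) lie farthest to the left.

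In the sterol arm the entry step fell. Acat2 had 66.1 and 69.6 CPM in HFD and 78.6, 83.9 and 83.1 CPM in control libraries at E14.5, 55.6 and 63.9 CPM in HFD and 49.2, 52.8 and 67.3 CPM in control libraries at E16.5, and 36.1 and 44.3 CPM in HFD and 42.6 and 41.5 CPM in control libraries at E18.5. It was lower at each later stage, with a log2 change of -0.41 ± 0.09 from E14.5 to E16.5 (adjusted p = 0.00398) and of -0.50 ± 0.10 from E16.5 to E18.5 (adjusted p = 0.00443). Over the whole interval its change was -0.91 ± 0.10 (adjusted p = 1.04e-05), which left 0.53 of the E14.5 level at E18.5. With all 15 libraries that change was -0.75 ± 0.14 (adjusted p = 0.00137), while the steps to E16.5 (-0.36, adjusted p = 0.0563) and from E16.5 (-0.39, adjusted p = 0.121) did not pass. In mouse and human Acat2 overlaps the chaperonin gene Tcp1 on the opposite strand, and whether the counting used strand is not given, so reads of a shared end cannot be told apart.

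Hmgcs1, the cytosolic HMG-CoA synthase that acts on the product of Acat2, went the other way. It had 268 and 264 CPM in HFD and 334, 319 and 348 CPM in control libraries at E14.5, 282 and 367 CPM in HFD and 299, 323 and 357 CPM in control libraries at E16.5, and 339.8 and 375 CPM in HFD and 356 and 409 CPM in control libraries at E18.5. The change from E14.5 to E18.5 was 0.26 ± 0.09 (log2, adjusted p = 0.0255), and the lowest values of all were those of the E14.5 HFD libraries. The call was lost without E14.5 HFD replicate 1 or 2, E18.5 control replicate 3 or E18.5 HFD replicate 2, and with control libraries alone.

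Pmvk, the second kinase of the mevalonate pathway, rose. It had 10.5 and 9.43 CPM in HFD and 11.99, 10.3 and 11.5 CPM in control libraries at E14.5, 13.2 and 14.2 CPM in HFD and 14.6, 14.9 and 13.6 CPM in control libraries at E16.5, and 16.9 and 14.8 CPM in HFD and 21.7 and 17.4 CPM in control libraries at E18.5. Its change was 0.35 ± 0.11 from E14.5 to E16.5 (adjusted p = 0.02) and 0.68 ± 0.11 from E14.5 to E18.5 (adjusted p = 2.31e-04), a fold of 1.60. The 4 libraries of E18.5 lay above all 5 of E14.5. The call at E16.5 was lost without E14.5 HFD replicate 2 or E16.5 HFD replicate 2, and by DESeq2.

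Lss, lanosterol synthase, which closes the first sterol ring system, also rose. Its levels were 88.8 and 67.2 CPM in HFD and 83.8, 73.9 and 86.4 CPM in control libraries at E14.5, 97.4 and 106 CPM in HFD and 94.4, 89.5 and 93.4 CPM in control libraries at E16.5, and 104 and 102 CPM in HFD and 98.2 and 102 CPM in control libraries at E18.5. Its change was 0.30 ± 0.09 from E14.5 to E18.5 (adjusted p = 0.0124) and 0.23 ± 0.09 from E14.5 to E16.5 (adjusted p = 0.0438). All values of E14.5 lay below those of both later stages, and E16.5 and E18.5 overlapped. Without E14.5 HFD replicate 2 both calls were lost, and the E16.5 call was also lost without any 1 of E14.5 control replicate 2, E16.5 control replicate 1, E16.5 HFD replicate 2 and the 4 E18.5 libraries, by DESeq2 and with upper-quartile scaling.

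Nsdhl, a sterol dehydrogenase of the removal of the 4-methyl groups, fell. It had 28.9 and 29.2 CPM in HFD and 26.4, 33.1 and 35.8 CPM in control libraries at E14.5, 21.9 and 26.2 CPM in HFD and 24.1, 21.8 and 29.8 CPM in control libraries at E16.5, and 21.9 and 23.4 CPM in HFD and 22.9 and 28.7 CPM in control libraries at E18.5. The change was -0.38 ± 0.12 from E14.5 to E18.5 (adjusted p = 0.0167) and -0.35 ± 0.11 from E14.5 to E16.5 (adjusted p = 0.0263). The E14.5 and E18.5 values overlapped, and the call for E18.5 was lost without E18.5 control replicate 2 or E18.5 HFD replicate 1. The call for E16.5 was lost without any 1 of E14.5 control replicate 3, the 2 E14.5 HFD libraries, E16.5 control replicates 1 and 2 and E16.5 HFD replicate 1, with all 15 libraries and with no filter on low counts.

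The remaining 13 sterol synthesis genes did not pass the threshold between any stages with 14 libraries, although Mvd, Fdft1, Mvk, Ebp and Sqle each passed in some interval under at least 1 alternative. Sqle, the squalene epoxidase that commits squalene to sterols, had 109 and 108 CPM in HFD and 123, 126 and 138 CPM in control libraries at E14.5, 124 and 153 CPM in HFD and 129.5, 136 and 138 CPM in control libraries at E16.5, and 121 and 127 CPM in HFD and 119 and 143 CPM in control libraries at E18.5. Its change from E14.5 to E18.5 was 0.06 ± 0.08 (adjusted p = 0.56). The largest uncalled change from E14.5 to E18.5 in this arm was that of Ebp (-0.43 ± 0.19, adjusted p = 0.0691) at 3.97 to 7.38 CPM. Mvk, the mevalonate kinase, changed by -0.28 ± 0.14 (adjusted p = 0.108) and Fdft1, squalene synthase, by 0.21 ± 0.10 (adjusted p = 0.0854). The other 9 were Mvd, Idi1 and Fdps of the isoprenoid steps, the lanosterol demethylase Cyp51, the sterol reductases Tm7sf2 and Dhcr7, Msmo1 and Hsd17b7, which act with Nsdhl on the 4-methyl groups, and the sterol desaturase Sc5d. They lay between -0.13 and 0.17. Of the 2 successive kinases, Pmvk passed the threshold and Mvk did not, and the difference between them was not tested. Summed over the 18 genes, the sterol arm had 1175 and 1174 CPM in HFD and 1272, 1343 and 1447 CPM in control libraries at E14.5, 1243 and 1470.4 CPM in HFD and 1257, 1305 and 1439 CPM in control libraries at E16.5, and 1331 and 1374 CPM in HFD and 1309 and 1496 CPM in control libraries at E18.5. The totals of the 3 stages overlapped.

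Among the genes that control SREBP, the escort rose while Srebf1 and Insig1 fell. Scap had 66.98 and 63.5 CPM in HFD and 65.96, 64.8 and 61.9 CPM in control libraries at E14.5, 82.3 and 84.8 CPM in HFD and 78.9, 76.99 and 66.9 CPM in control libraries at E16.5, and 102 and 92.1 CPM in HFD and 99.2 and 86.6 CPM in control libraries at E18.5. It rose by 0.23 ± 0.08 from E14.5 to E16.5 (log2, adjusted p = 0.0291), by 0.27 ± 0.08 from E16.5 to E18.5 (adjusted p = 0.0317) and by 0.50 ± 0.08 over both steps (adjusted p = 1.83e-04). All 4 E18.5 libraries lay above the other stages. The change over both steps kept its call under every alternative, while that from E16.5 to E18.5 was lost without any 1 of E16.5 control replicate 3, the 2 E16.5 HFD libraries, E18.5 control replicate 2 and the 2 E18.5 HFD libraries, with all 15 libraries and with no filter on low counts. That from E14.5 to E16.5 was lost without any 1 of E14.5 control replicate 3, the 2 E14.5 HFD libraries, E16.5 control replicate 1 and E16.5 HFD replicate 2, and with upper-quartile scaling.

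Srebf1 had 45.2 and 49.99 CPM in HFD and 44.5, 49.3 and 39.3 CPM in control libraries at E14.5, 48.6 and 44.4 CPM in HFD and 47.7, 46.4 and 45.4 CPM in control libraries at E16.5, and 30.9 and 33.6 CPM in HFD and 42.7 and 33.9 CPM in control libraries at E18.5. It changed by -0.03 ± 0.09 from E14.5 to E16.5 (adjusted p = 0.806) and by -0.40 ± 0.10 from E16.5 to E18.5 (adjusted p = 0.0129), so the step that passed was the later one. Over both steps it was -0.44 ± 0.10 (adjusted p = 0.00228). The E18.5 values lay below all of E16.5 but overlapped E14.5, where control replicate 3 was low, and the E16.5 to E18.5 call was lost without E18.5 control replicate 3 or E18.5 HFD replicate 1.

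Insig1, which retains the Scap and SREBP complex and is itself a sterol-responsive gene, had 49.3 and 53.9 CPM in HFD and 48.7, 65.7 and 60.9 CPM in control libraries at E14.5, 45.5 and 55.2 CPM in HFD and 43.2, 48.2 and 53.8 CPM in control libraries at E16.5, and 40.4 and 40.02 CPM in HFD and 34.8 and 46.8 CPM in control libraries at E18.5. Its change was -0.49 ± 0.12 from E14.5 to E18.5 (adjusted p = 0.00303), and the 2 stages did not overlap. With all 15 libraries the change was -0.34 ± 0.14 (adjusted p = 0.0684). Its relative Insig2 changed by 0.31 ± 0.18 (adjusted p = 0.159) at 3.93 to 6.76 CPM and did not pass.

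Srebf2, the main factor of sterol synthesis, was steady. It had 309 and 331 CPM in HFD and 377, 359.7 and 320.2 CPM in control libraries at E14.5, 369.8 and 349 CPM in HFD and 368, 349 and 337 CPM in control libraries at E16.5, and 319.9 and 315 CPM in HFD and 326 and 305 CPM in control libraries at E18.5. The change from E14.5 to E18.5 was -0.14 ± 0.08 (adjusted p = 0.159), although all E18.5 values lay below all of E16.5.

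**Figure D3:**
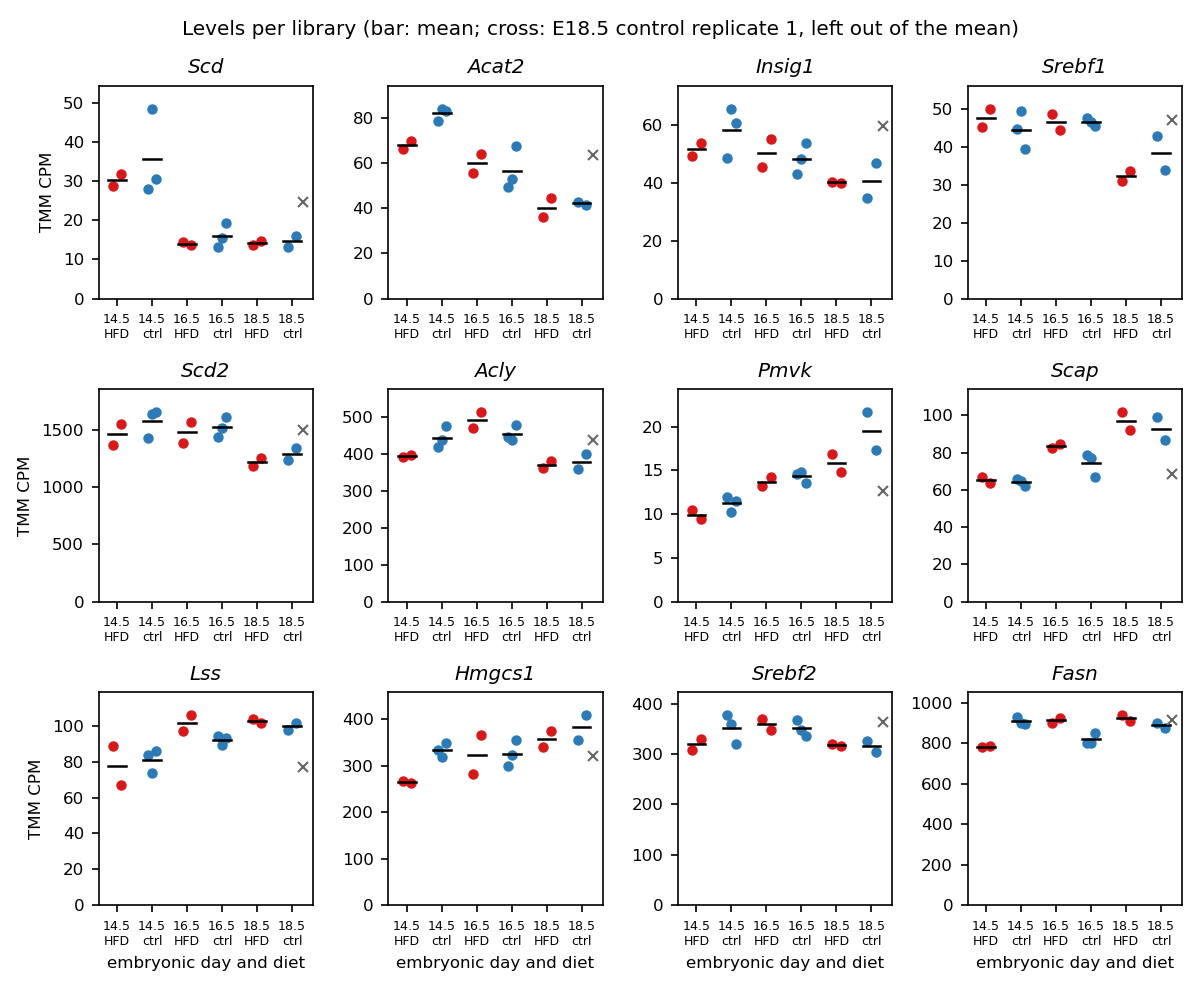
TMM CPM of 12 of the genes in each library by embryonic day and diet (HFD red, control blue), with the group mean as a bar, every axis starting at 0. The cross is E18.5 control replicate 1, left out of the mean, which for Scd (24.6 CPM) and Acat2 (63.4 CPM) lies above the other E18.5 libraries.

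In the fatty acid arm the clearest change was in Scd, a stearoyl-CoA desaturase, which puts the double bond into oleate. Scd had 28.9 and 31.8 CPM in HFD and 27.9, 48.5 and 30.5 CPM in control libraries at E14.5, 14.4 and 13.7 CPM in HFD and 13.1, 15.6 and 19.3 CPM in control libraries at E16.5, and 13.8 and 14.7 CPM in HFD and 13.3 and 16.05 CPM in control libraries at E18.5. It fell, with a log2 change of -1.18 ± 0.16 from E14.5 to E16.5 (adjusted p = 1.17e-04) and of -1.24 ± 0.17 from E14.5 to E18.5 (adjusted p = 5.01e-05), which left 0.42 of the E14.5 level. The 5 values of E14.5 lay above all later ones, the step from E16.5 to E18.5 was -0.06 ± 0.17 (adjusted p = 0.85), and both calls were kept without any 1 library and in HFD or control libraries alone. With all 15 libraries the change from E14.5 to E18.5 was -1.04 ± 0.20 (adjusted p = 0.00165). The head mesenchyme markers moved with it: they summed to 1825 to 5771 CPM at E14.5 and 4826 CPM in E18.5 control replicate 1, where Scd had 24.6 CPM, and to 451 to 1296 CPM in all other libraries. Within E14.5 the order differed, since the control library with the highest Scd (replicate 2) had the middle mesenchyme sum of the 3 controls. Their part in the fall of Scd was not tested. The same markers move with every change measured from E14.5, while the change from E16.5 to E18.5 compares libraries in which they overlap.

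Its paralog Scd2, the desaturase known as the main one of brain in rodents, had no called change before E16.5. Scd2 had 1372 and 1552 CPM in HFD and 1429, 1636 and 1655 CPM in control libraries at E14.5, 1383 and 1571 CPM in HFD and 1439, 1517 and 1613 CPM in control libraries at E16.5, and 1180.0 and 1254 CPM in HFD and 1240.2 and 1343 CPM in control libraries at E18.5. The change was -0.07 ± 0.08 from E14.5 to E16.5 (adjusted p = 0.532), -0.26 ± 0.08 from E16.5 to E18.5 (adjusted p = 0.0382) and -0.32 ± 0.08 over both steps (adjusted p = 0.00423). The E18.5 values lay below both earlier stages, but the call from E16.5 to E18.5 was lost without any 1 of 10 libraries (all but E14.5 control replicates 2 and 3, E14.5 HFD replicate 2 and E16.5 HFD replicate 1) and under both other scalings and both other filters, and the call over both steps was lost without E18.5 HFD replicate 1. Reads shared by the 2 desaturase genes may be split between them by the counting.

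Acly, which makes cytosolic acetyl-CoA from citrate, had 391 and 397 CPM in HFD and 420.5, 437 and 476 CPM in control libraries at E14.5, 472 and 514 CPM in HFD and 447, 437 and 480.0 CPM in control libraries at E16.5, and 363 and 380.4 CPM in HFD and 359 and 400.5 CPM in control libraries at E18.5. All E18.5 values lay below those of E16.5, and its log2 change was -0.33 ± 0.07 from E16.5 to E18.5 (adjusted p = 0.00575), a call lost without E18.5 HFD replicate 1. From E14.5 to E18.5 the change was -0.21 ± 0.07 (adjusted p = 0.024), and this call was lost without any 1 of 10 libraries (all but E14.5 control replicates 2 and 3, E16.5 HFD replicate 2 and E18.5 control replicate 3), with RLE scaling and under both other filters.

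Fasn had 782 and 785 CPM in HFD and 930.0, 898 and 895 CPM in control libraries at E14.5, 902 and 926 CPM in HFD and 803, 804 and 852 CPM in control libraries at E16.5, and 939 and 912 CPM in HFD and 902 and 877 CPM in control libraries at E18.5. Its change from E14.5 to E18.5 was 0.06 ± 0.07 (adjusted p = 0.499), within the spread of the libraries. The remaining 5 genes did not pass either: acetyl-CoA carboxylase Acaca (0.19 ± 0.09), the elongases Elovl5 (-0.06 ± 0.14) and Elovl6 (-0.20 ± 0.12), and the desaturases of polyunsaturated fatty acids Fads1 (-0.23 ± 0.11) and Fads2 (0.20 ± 0.09). Summed over the 9 genes, the fatty acid arm had 3000.4 and 3223 CPM in HFD and 3241, 3522 and 3576 CPM in control libraries at E14.5, 3229 and 3541 CPM in HFD and 3164, 3278 and 3470.4 CPM in control libraries at E16.5, and 2969 and 3066 CPM in HFD and 3000.4 and 3123 CPM in control libraries at E18.5. All E18.5 totals lay below those of E16.5, but the mean log2 CPM of the same 9 genes overlapped, at 7.04 to 7.13 in the 4 E18.5 libraries and 7.08 to 7.24 in the 5 of E16.5, and neither was tested. Acaca and Fads2 passed from E14.5 to E18.5 with RLE scaling and with the stricter filter. With all 15 libraries Fads2 passed (0.24 ± 0.09, adjusted p = 0.0371).

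Each diet alone gave fewer calls. From E14.5 to E18.5, 7 of the 32 genes passed in HFD libraries alone, against 46.8% of all genes, and 7 in control libraries alone, against 43.3%. Of these, Acat2, Scd, Scap, Pmvk and Scd2 passed in both. Hmgcs1 and Srebf1 passed with HFD libraries alone, and Insig1 and Acly with control libraries alone. Lss and Nsdhl passed in neither. From E14.5 to E16.5 Scd was the only gene of the 32 called in both diets, with 1 called in HFD libraries (30.5% of all genes) and 2 in control libraries (23.4%). From E16.5 to E18.5, 2 were called in HFD libraries (5.87% of all genes) and none in control libraries (10.6%). These fits hold 2 or 3 libraries per stage, and the difference between the diets belongs to the second comparison.

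Markers of cell types moved between the same stages. The summed level of 6 proliferation markers was 1389 to 2218 CPM at E14.5, 1326 to 1609 CPM at E16.5 and 610.5 to 726 CPM at E18.5, without E18.5 control replicate 1. Astrocyte markers (5 genes) summed to 9.32 to 16.1, 17.9 to 22.5 and 35.6 to 39.7 CPM, and neuron markers (8 genes) to 1135 to 3017, 4402 to 5481 and 6257 to 6732 CPM. The astrocyte sum did not hold for its whole list. From E14.5 to E16.5, 2 of its 5 genes passed as higher and 2 as lower, against 21.6% and 21.3% of all genes. The proliferation sums of E18.5 thus lay below all of E16.5, as did the levels of Acat2, Srebf1, Scd2 and Acly. Their part in the changes of Acat2, Acly, Srebf1, Scd2 and Scap was not tested.

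The library labelled E18.5 control replicate 1 differed from the other 4 E18.5 libraries in many genes, these among them. In 21 of the 32 it lay outside their range, as it did in 74.1% of all tested genes. In 15 of those 21 it lay inside the range of the 5 E14.5 libraries, as in 71.7% of all genes outside it, and in 8 inside that of the 5 E16.5 libraries, 6 of them in both. Srebf1 had 47.01 CPM in it, Insig1 59.6 CPM, Scd2 1497 CPM and Acly 437 CPM, all above the other E18.5 libraries. Scap had 68.5 CPM, Lss 77.3 CPM and Pmvk 12.6 CPM, all below them.

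Other genes of the same pathways had a larger median absolute log2 change between E14.5 and E18.5, at 0.57 for 24 genes of sterol handling and 0.50 for 22 of fatty acid metabolism, near the 0.52 of all genes. Of the 24, which serve sterol uptake, transport and turnover, 9 rose and 7 fell between E14.5 and E18.5. The shares of all genes were 27% and 31.6%. Npc2, which carries cholesterol out of lysosomes, fell (-0.67 ± 0.08, adjusted p = 2.40e-05), and Soat1, which esterifies cholesterol for storage, had a log2 change of -1.42 ± 0.18 (adjusted p = 2.78e-05).

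Lrp8 and Cyp46a1 rose, and the neuron marker sums were also higher at the later stages. Lrp8, an ApoE and reelin receptor, rose by 1.71 ± 0.17 (adjusted p = 5.38e-06) from E14.5 to E18.5, and Cyp46a1, the neuronal cholesterol 24-hydroxylase, by 1.83 ± 0.22 (adjusted p = 1.93e-05). Most of both changes was present at E16.5 (Lrp8 1.55 ± 0.17, Cyp46a1 1.54 ± 0.22). From E14.5 to E16.5, 7 of the 24 rose and 7 fell, against 21.6% and 21.3% of all genes. Among them the sterol exporter Abcg1 rose (0.72 ± 0.09, adjusted p = 7.61e-05). Mylip, a ubiquitin ligase under control of the sterol sensor LXR, fell (-1.98 ± 0.21, adjusted p = 2.84e-05). From E16.5 to E18.5, 2 rose and 2 fell, against 10.6% and 11.8% of all genes. Apoe, the main apolipoprotein of brain, made chiefly by glia, rose by 1.06 ± 0.18 (adjusted p = 0.00138), and Mbtps2, the site-2 protease that frees SREBP, by 0.36 ± 0.10 (adjusted p = 0.0211). Stard4, a cytosolic sterol carrier (-0.60 ± 0.17, adjusted p = 0.0237), and Npc2 (-0.32 ± 0.08, adjusted p = 0.0166) fell. The Mbtps2 call was lost without E16.5 HFD replicate 1, E18.5 control replicate 3 or E18.5 HFD replicate 2, and that of Npc2 without E18.5 control replicate 2 or E18.5 HFD replicate 1. The Stard4 call was lost without E16.5 control replicate 2 or 3, E16.5 HFD replicate 2, E18.5 control replicate 2 or E18.5 HFD replicate 1. With all 15 libraries none of these 3 passed.

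Of 22 further genes of fatty acid metabolism, 11 rose and 3 fell between E14.5 and E18.5, against 27% and 31.6% of all genes. Gpam, which starts glycerolipid synthesis, rose by 0.62 ± 0.08 (adjusted p = 4.22e-05). The elongase Elovl4 rose by 0.63 ± 0.10 (adjusted p = 1.44e-04), and the dehydratase Hacd3 (0.53 ± 0.09, adjusted p = 2.87e-04) and the reductase Tecr (0.52 ± 0.09, adjusted p = 2.86e-04), which complete each elongation cycle, rose with it. From E14.5 to E16.5, 7 rose and 4 fell, against 21.6% and 21.3% of all genes. Elovl2 was at 0.78 ± 0.13 (adjusted p = 4.61e-04), Gpam at 0.38 ± 0.08 (adjusted p = 0.0024) and Hacd3 at 0.39 ± 0.09 (adjusted p = 0.00311). Acacb, the mitochondrial carboxylase, was at -0.75 ± 0.15 (adjusted p = 0.00169). From E16.5 to E18.5, 2 rose and none fell, against 10.6% and 11.8% of all genes. The 2 were Me1, a source of NADPH (1.01 ± 0.19, adjusted p = 0.00341), and the desaturase-like Fads3 (0.70 ± 0.15, adjusted p = 0.00664). By unadjusted p under 0.05, 6 of the 22 rose and 1 fell in that interval, against 2643 and 2777 of all 15354 genes.

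The second comparison asked whether the maternal diet changed these genes within a stage, HFD minus control, with all 15 libraries. By edgeR's quasi-likelihood test none of the 32 genes passed at E14.5 (0% of all genes passed), at E16.5 (0%), at E18.5 (0.00649%, 1 gene of 15417) or on average over the stages (0%). None of the differences between stages in the diet effect passed for any of the 32 genes or any other gene (0% in each of the 3). Each stage has 2 HFD and 3 control libraries, and a p that misses the threshold does not show that the diets act alike.

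**Figure D4:**
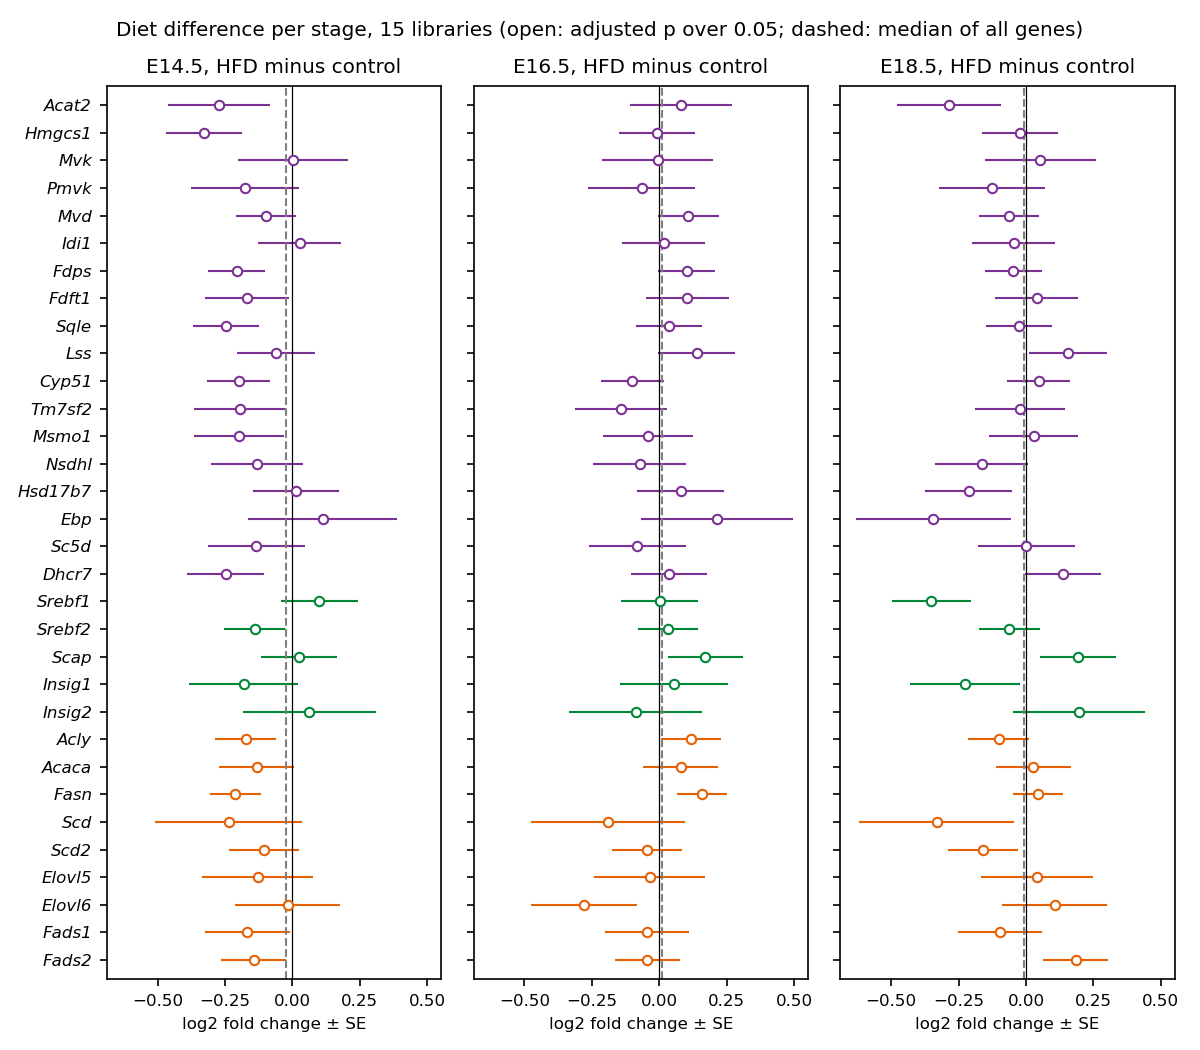
Log2 fold change of HFD over control with its SE (bars) for each of the 32 genes at each stage, from 15 libraries. No point passed an adjusted p of 0.05, colours mark the arms (purple sterol synthesis, green SREBP control, orange fatty acid synthesis), the dashed line is the median of all tested genes, and at E14.5 25 of the 32 points lie below 0.

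At E14.5, 25 of the 32 genes were lower and 7 higher in HFD cortex, all 9 fatty acid genes being among the lower ones. The median log2 change was -0.14, against -0.02 for all genes. The same numbers were lower and higher without E18.5 control replicate 1. An unadjusted p under 0.05 was reached by 2 of the 32, both lower, against 2.74% of all genes lower at that p. In 7 of the 32 genes both HFD libraries lay below all 3 control libraries and in none above, against 10.1% of all genes below and 10.8% above. The 7 were Acat2, Hmgcs1, Mvd, Fdps, Sqle, Acly and Fasn.

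Hmgcs1 had 268 and 264 CPM in HFD libraries and 334, 319 and 348 CPM in control libraries at E14.5. The change was -0.33 ± 0.14 (unadjusted p = 0.0391, adjusted p = 1.00), and -0.31 ± 0.12 without E18.5 control replicate 1 (adjusted p = 0.446). HFD libraries lay below controls by more than the spread within either diet, and the adjusted p ran between 0.283 and 1.00 over 24 alternatives.

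Fasn had 782 and 785 CPM in HFD libraries and 930.0, 898 and 895 CPM in control libraries at E14.5. The HFD libraries lay near each other and below every control. Its change was -0.21 ± 0.09 (unadjusted p = 0.044, adjusted p = 1.00 by edgeR). By DESeq2 Fasn was the only 1 of the 32 genes to pass (adjusted p = 0.0487, 22 genes in all), and without E18.5 control replicate 1 it did not (adjusted p = 0.0672). Sqle had 109 and 108 CPM in HFD libraries and 123, 126 and 138 CPM in control libraries, a change of -0.25 ± 0.12 (unadjusted p = 0.0697, adjusted p = 1.00).

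The other genes fixed for description did not pass by any tool at E14.5. Srebf2 had 309 and 331 CPM in HFD libraries and 377, 359.7 and 320.2 CPM in control libraries (-0.14 ± 0.11), and Srebf1 had 45.2 and 49.99 CPM in HFD libraries and 44.5, 49.3 and 39.3 CPM in control libraries (0.10 ± 0.14). Insig1 had 49.3 and 53.9 CPM in HFD libraries and 48.7, 65.7 and 60.9 CPM in control libraries (-0.18 ± 0.20), and Scd2 had 1372 and 1552 CPM in HFD libraries and 1429, 1636 and 1655 CPM in control libraries (-0.11 ± 0.13), each with an adjusted p of 1.00. In all 4 the diets overlapped. The controls of this stage differed from each other in tissue markers, with 5771, 3184 and 1825 CPM of head mesenchyme markers and 291, 253 and 589.9 CPM of cortex markers, against 4874 and 4329 CPM and 422 and 366 CPM in HFD libraries. Their part in the lower HFD values was not tested.

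At E16.5, 17 of the 32 genes were higher and 15 lower in HFD cortex, with a median log2 change of 0.01, and 15 were higher and 17 lower without E18.5 control replicate 1. None of the 32 had an unadjusted p under 0.05 by edgeR, against 1.34% of all genes, and none passed by DESeq2 or limma-voom. The 3 smallest p-values were those of Fasn, Elovl6 and Scap. Fasn had 902 and 926 CPM in HFD libraries and 803, 804 and 852 CPM in control libraries, the reverse of its order at E14.5 (0.16 ± 0.09, unadjusted p = 0.116, adjusted p = 1.00). Elovl6, which elongates palmitate, had 27.7 and 31.9 CPM in HFD libraries and 34.8, 40.02 and 33.6 CPM in control libraries (-0.28 ± 0.20, unadjusted p = 0.183), and Scap had 82.3 and 84.8 CPM in HFD libraries and 78.9, 76.99 and 66.9 CPM in control libraries (0.17 ± 0.14, unadjusted p = 0.245). Both HFD libraries lay above all controls in 3 of the 32 genes (Fasn, Scap and Lss) and below them in 1 (Elovl6). Among all genes, 9.69% lay above and 7.87% below. Hmgcs1 (-0.01 ± 0.14), Sqle (0.04 ± 0.12), Scd2 (-0.04 ± 0.13), Srebf1 (0.00 ± 0.14), Srebf2 (0.03 ± 0.11) and Insig1 (0.05 ± 0.20) differed by less than their SE.

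At E18.5, 14 of the 32 were higher and 18 lower, with a median of -0.02, and without control replicate 1, 11 were higher and 21 lower, with a median of -0.04. Srebf1 was the only 1 of the 32 with an unadjusted p under 0.05, against 4.04% of all genes lower at that p. It had 30.9 and 33.6 CPM in HFD libraries and 47.01, 42.7 and 33.9 CPM in control libraries. The change was -0.35 ± 0.15 (unadjusted p = 0.0344, adjusted p = 0.821), and -0.25 ± 0.15 (unadjusted p = 0.122) without that library, whose level was the highest of the 3 controls. Both HFD libraries lay below all 3 controls, the nearest pair being 33.6 and 33.9 CPM.

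The next smallest p-values at E18.5 were those of Fads2 and Acat2. Fads2 had 105 and 106 CPM in HFD libraries and 89.8, 100.2 and 89.3 CPM in control libraries (0.18 ± 0.12, unadjusted p = 0.151), and 0.16 ± 0.14 without replicate 1. Acat2 had 36.1 and 44.3 CPM in HFD libraries and 63.4, 42.6 and 41.5 CPM in control libraries (-0.29 ± 0.19, unadjusted p = 0.165), and -0.06 ± 0.15 without replicate 1. Hmgcs1 (-0.02 ± 0.14), Sqle (-0.03 ± 0.12), Fasn (0.04 ± 0.09) and Srebf2 (-0.06 ± 0.11) differed by less than their SE, and without replicate 1 the values were -0.10 ± 0.13 for Hmgcs1, -0.08 ± 0.12 for Sqle, 0.06 ± 0.10 for Fasn and 0.01 ± 0.12 for Srebf2. Scd2 (-0.16 ± 0.13) and Insig1 (-0.23 ± 0.20) exceeded it slightly, and without replicate 1 they were -0.09 ± 0.12 and -0.02 ± 0.17.

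Averaged over the 3 stages, 28 of the 32 genes were lower and 4 higher in HFD cortex (27 and 5 without E18.5 control replicate 1), with a median of -0.05, against -0.02 for all genes, of which 8610 of 15417 were lower. None of the 32 had an unadjusted p under 0.05, against 2.7% of all genes. The smallest p-values of edgeR's quasi-likelihood test were those of Scap (0.13 ± 0.08, unadjusted p = 0.137), Scd (-0.25 ± 0.16, unadjusted p = 0.146) and Hmgcs1 (-0.12 ± 0.08, unadjusted p = 0.17), and none passed by DESeq2 or limma-voom. Without E18.5 control replicate 1 they were 0.08 ± 0.07 for Scap (unadjusted p = 0.221), -0.16 ± 0.14 for Scd (unadjusted p = 0.261) and -0.15 ± 0.07 for Hmgcs1 (unadjusted p = 0.0689).

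The diet effect was also compared between stages. At E16.5 it was higher than at E14.5 for 27 of the 32 genes, with and without E18.5 control replicate 1, and for 8443 of all 15417 genes. For Fasn the difference was 0.37 ± 0.13 (unadjusted p = 0.0163, adjusted p = 1.00 by edgeR), and it was the only 1 of the 32 with an unadjusted p under 0.05, against 3.68% of all genes. By DESeq2 this difference passed (adjusted p = 0.0142, and 0.0295 without E18.5 control replicate 1). Fdps, which makes farnesyl diphosphate, followed with 0.31 ± 0.15 (unadjusted p = 0.0605) and Acly with 0.29 ± 0.16 (unadjusted p = 0.0925). Fdps had 120.2 and 114 CPM in HFD libraries and 132, 135 and 138 CPM in control libraries at E14.5 and 136 and 148 CPM in HFD libraries and 122, 130.1 and 145 CPM in control libraries at E16.5.

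Between E14.5 and E18.5 the diet effect of Srebf1 differed by -0.45 ± 0.20 (unadjusted p = 0.0482, adjusted p = 0.645 by edgeR), the only 1 of the 32 at that p, against 7.61% of all genes. Without E18.5 control replicate 1 it was -0.36 ± 0.20 (unadjusted p = 0.0952). Fasn (0.26 ± 0.13) and Dhcr7, which makes cholesterol from its 7-dehydro form (0.39 ± 0.20), had the next smallest p-values, and without that library were 0.26 ± 0.13 and 0.32 ± 0.19. Between E16.5 and E18.5 none of the 32 had an unadjusted p under 0.05, against 1.47% of all genes, and the smallest p-values were those of Srebf1 (-0.35 ± 0.20), Elovl6 (0.38 ± 0.28) and Ebp (-0.56 ± 0.40). Without that library Elovl6 alone of the 32 had an unadjusted p under 0.05 (0.55 ± 0.25, unadjusted p = 0.0493, adjusted p = 1.00), against 1.3% of all genes, while Srebf1 was -0.23 ± 0.20 and Ebp -0.33 ± 0.38.

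Of the 24 further sterol genes and the 22 further fatty acid genes, no adjusted p was under 0.05 at any stage in edgeR's test. At E14.5, 15 of the 24 were higher in HFD cortex with a median of 0.05, and 10 of the 22 with a median of -0.03, where the sterol synthesis genes had a median of -0.17 and the fatty acid synthesis genes -0.14. An unadjusted p under 0.05 was reached at E14.5 by 1 of the 24 and by 1 of the 22, both lower, against 2.74% of all genes lower. At E16.5 none reached it, against 1.34% of all genes. At E18.5 it was reached by 3 of the 24 and 1 of the 22, against 146 higher and 623 lower of all 15417 genes.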

How the data were processed

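Total RNA of embryo brain cortex was depleted of ribosomal RNA and sequenced. The authors deposited 1 table of estimated counts per gene for the 15 libraries, as whole numbers with no normalization. Per the study's methods, reads were aligned to rn6 with Bowtie2 and quantified with RSEM, while the submitters' processing notes name FastQC, Bowtie2, HTSeq and DESeq2, so the counter is uncertain. Whether counting used strand, and how reads shared by paralogs were assigned, was not given in these sources. Length-normalized values were not used.

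Genes were kept by filterByExpr in edgeR 4.0.16 (R 4.3.3; minimum count 10, by group), scaled by TMM and tested by edgeR's robust quasi-likelihood test, with Benjamini-Hochberg adjustment over all genes kept and a threshold of 0.05. Each SE was taken from the fold change and its F statistic, as the size of the log2 change over the root of F. Diet was tested with all 15 libraries and stage with 14, leaving out E18.5 control replicate 1. The test was checked on simulated data. Library totals of 5598195 to 9529978 counts limit precision for genes of a few CPM. Alternatives were DESeq2 1.42.0, limma-voom (limma 3.58.1), RLE and upper-quartile factors, other filters, fits of 1 diet or of the 2 groups compared, a replicate block and each library left out; DESeq2 without E18.5 control replicate 1 was chosen after seeing the data. Same-numbered libraries of the 2 diets had deviations correlated at -0.098 to 0.242, and the labels give the numbers no shared source.

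The members, gene lists and tests were chosen with earlier results of these data known. Values per library were given for up to 8 genes passing per stage comparison with the smallest p, for genes passing in any diet fit or otherwise the 3 with the smallest p, and always for Hmgcs1, Sqle, Fasn, Scd2, Srebf1, Srebf2 and Insig1; of other pathway genes up to 4 per list and stage comparison were named. Proteins of the paralogs were not compared, and a few genes of the lists are not reported here. Promoters came from RefSeq (GRCr8), matched by symbol, and 6 genes (Pmvk, Fdft1, Sqle, Acaca, Fasn and Elovl6) were not matched. Libraries are litters, so p-values measure the spread between litters.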

Additional observations from a re-analysis of the deposited data

How the results depend on the processing

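Counts of all genes called for diet moved with the tool. DESeq2 called 22 genes at E14.5, 19 at E18.5, 6 on average, and 5 for the difference of E16.5 from E14.5, 6 for that of E18.5 from E14.5 and 2 for that of E18.5 from E16.5, where edgeR called 0, 1, 0, 0, 0 and 0. Without E18.5 control replicate 1, DESeq2 called 94, 12, 4, 40, 5 and 1. Of the 32 genes it called 1 at E14.5 (Fasn, none without that library) and 1 for the difference between E16.5 and E14.5 (Fasn, also 1 without it). Limma-voom called 2 genes at E16.5 and 0 at E18.5. At E18.5 the 1 gene of edgeR became 0 in the fit of the 2 groups, with no filter and with the replicate block.

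For the stages, control libraries alone called 3589 genes between E14.5 and E16.5 (against 6591), 2 of them among the 32, and HFD libraries alone called 1 of the 32 (against 6). Between E14.5 and E18.5 each diet alone called 7 of the 32 (against 11). Between E16.5 and E18.5, 3437 genes were called, against 693 with all 15 libraries, 1626 with controls alone and 901 with HFD libraries alone. Of the 32 genes, 5 were called there, against 0 with all 15 libraries, 0 with controls alone, 2 with HFD libraries alone, 3 with no filter and 8 with the replicate block. In the main fit 10.6% of all genes rose and 11.8% fell. The shares with no filter and with the replicate block are not given here, so those 2 counts cannot be set against all genes.

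Small diet effects changed sign. At E16.5 Hmgcs1 was 0.0530 and Srebf2 -0.0192 with the replicate block, and Srebf1 (0.00137) was -0.0107 by DESeq2 (-0.0110 without E18.5 control replicate 1), -0.00952 in the 2-group fit, -0.0119 with RLE and -0.0142 with upper-quartile factors, and -0.0797 with the replicate block. At E18.5 Hmgcs1 was 0.0467 and Sqle 0.0342 with the replicate block, and Srebf2 was 0.0129 by DESeq2 without that library. Between E14.5 and E18.5, control libraries alone gave Fasn -0.0733 and Sqle -0.0155. The cause of these changes was not tested.

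Leaving out each library in turn gave 0 to 12 genes called on average, 0 to 1, 0 to 6 and 0 to 12 for the differences (in the order above), 0 to 1 at E16.5 and 0 to 15 at E18.5 (15 without E18.5 HFD replicate 2). Diet effects ran at E16.5 between -0.22 and 0.17 for Hmgcs1, -0.0974 and 0.19 for Insig1, -0.15 and 0.0458 for Scd2, -0.13 and 0.18 for Sqle, -0.0654 and 0.0593 for Srebf1, and -0.00971 and 0.0707 for Srebf2. At E18.5 they ran between -0.00760 and 0.0575 for Fasn, -0.11 and 0.0430 for Hmgcs1, -0.0817 and 0.0412 for Sqle, and -0.16 and 0.0104 for Srebf2. Between E14.5 and E18.5 Sqle ran between -0.00903 and 0.13. Between E14.5 and E16.5, 2 to 7 of the 32 genes were called (2 without E14.5 HFD replicate 2, 3 without E16.5 control replicate 1). In the main fit 21.6% of all genes rose and 21.3% fell in that interval. Between E16.5 and E18.5, 2118 to 3973 genes were called, and 1 to 6 of the 32 (1 without E18.5 HFD replicate 1, 3 without E16.5 control replicate 3, E16.5 HFD replicate 2, E18.5 control replicate 2 or E18.5 HFD replicate 2).

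Deviations of same-numbered libraries of the 2 diets were correlated at 0.160 and 0.242 at E14.5, 0.181 and 0.085 at E16.5, and -0.022 and -0.098 at E18.5. With 2 HFD libraries per stage their 2 deviations mirror each other. These values therefore cannot decide whether the numbers pair the libraries. Genes of the 32 not called in an interval also passed under some alternatives: from E14.5 to E18.5 Acaca and Fads2 with RLE factors, these and Fdft1 with the stricter filter, and Ebp, Fads1, Fads2 and Fdft1 with the replicate block, and from E14.5 to E16.5 Mvd with RLE or upper-quartile factors. Other scalings shifted the median of all genes by under 0.1.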
